A study of Mus musculus with 6 samples.

Results

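The 42 genes described here carry zinc, iron and copper across membranes, bind zinc, or store and sense iron, and they were compared between astrocytes of the upper and the deep layers of the mouse neocortex. They were chosen by symbol from the 43383 rows of the deposited table: the zinc transporter families Slc30a and Slc39a, the metallothioneins Mt1 to Mt4, the ferritin chains Fth1 and Ftl1, Tfrc, Slc11a1, Slc11a2, Slc40a1, Cp, Heph, the iron sensors Aco1 and Ireb2, and the copper transporters Slc31a1, Slc31a2, Atp7a and Atp7b. No measured value was used as a criterion, but earlier results of these data were known when the choice was made. The cells were GFP-positive astrocytes sorted from 4-week-old male Aldh1l1-eGFP mice, in which an Aldh1l1 promoter drives eGFP and all animals of both groups carry the transgene. Within the somatosensory cortex, upper-layer astrocytes (ULAs) came from layers II–IV and deep-layer astrocytes (DLAs) from layers V and VI, with 3 libraries per layer numbered 1 to 3 in the labels. The study's methods compare the layers in pairs over 3 brains, and the replicate number was taken as the brain. Expression was measured by RNA-seq with single reads of 36 bases, and the authors deposited RPKM, that is, reads per kilobase of mRNA, scaled for the depth of the library.

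Zinc is a cofactor of a large number of enzymes and transcription factors, and its free level in the cytosol is held low. Proteins of the Slc39a (ZIP) family carry zinc into the cytosol, those of the Slc30a (ZnT) family carry it out of the cytosol or into vesicles, and metallothioneins are small cysteine-rich proteins that bind zinc and copper. Astrocytes contact blood vessels with their endfeet and are regarded as a buffer for metals in brain tissue. Iron enters cells through the transferrin receptor, is stored in ferritin and leaves through ferroportin, and the iron regulatory proteins adjust these steps by binding hairpins in the mRNAs.

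The libraries held 19.7 to 29.6 M reads, as the spacing of low RPKM values showed. The 13999 rows whose RPKM averaged 1 or more were tested with limma on the log2(RPKM + 1) scale with brain and layer as terms, and Benjamini-Hochberg adjusted p-values under 0.05 were counted as passing. On this scale the fold change of a low gene is understated. Of all rows tested, 100 passed as higher in ULAs (0.714%) and 128 as higher in DLAs (0.914%), and after quantile normalization the same counts were 138 and 103. All 11 astrocyte markers examined were expressed, with a summed RPKM of 10915 to 12530. Of these 1 passed, Gfap, as higher in DLAs (log2 fold change −0.93, adjusted p = 0.00556, limma). The sum of 10 oligodendrocyte markers was between 89.3 and 187 RPKM in ULAs and between 183 and 296 RPKM in DLAs, 7 of its 9 tested genes were higher in DLAs at an adjusted p under 0.05 (limma), and in each layer brain 3 had the highest sum. The sum of the 6 red blood cell markers present in the table was 0.94 to 1.79 RPKM in ULAs and 15.4 to 76.7 RPKM in DLAs, again highest in brain 3. In such bulk samples fewer cells of a type and less RNA per cell cannot be told apart.

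Of the 42 genes, 30 reached a mean RPKM of 1 and were tested. None of the 30 passed at an adjusted p of 0.05 in limma, in either direction. By unadjusted p-values under 0.05, 2 of the 30 were higher in ULAs (Tfrc and Slc39a11) and 4 in DLAs (Fth1, Mt1, Mt2 and Heph), while 5.64% and 10.8% of all tested rows were called by this rule in the respective directions. The 3 values of ULAs and the 3 values of DLAs did not overlap for 1 gene higher in ULAs, Slc39a11, and for 2 genes higher in DLAs, Fth1 and Heph. Among all tested rows 6.59% were separated in this way with ULAs higher and 9.27% with DLAs higher. The median log2 fold change of the 30 genes, ULAs minus DLAs, was 0.04, with a range from −0.42 to 0.31, and it was −0.03 over all tested rows. The counts of the 30 genes were thus near the background shares. By exact permutation of 3 against 3 libraries no p-value below 0.1 can arise, and none below 0.25 within pairs.

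**Figure D1:**
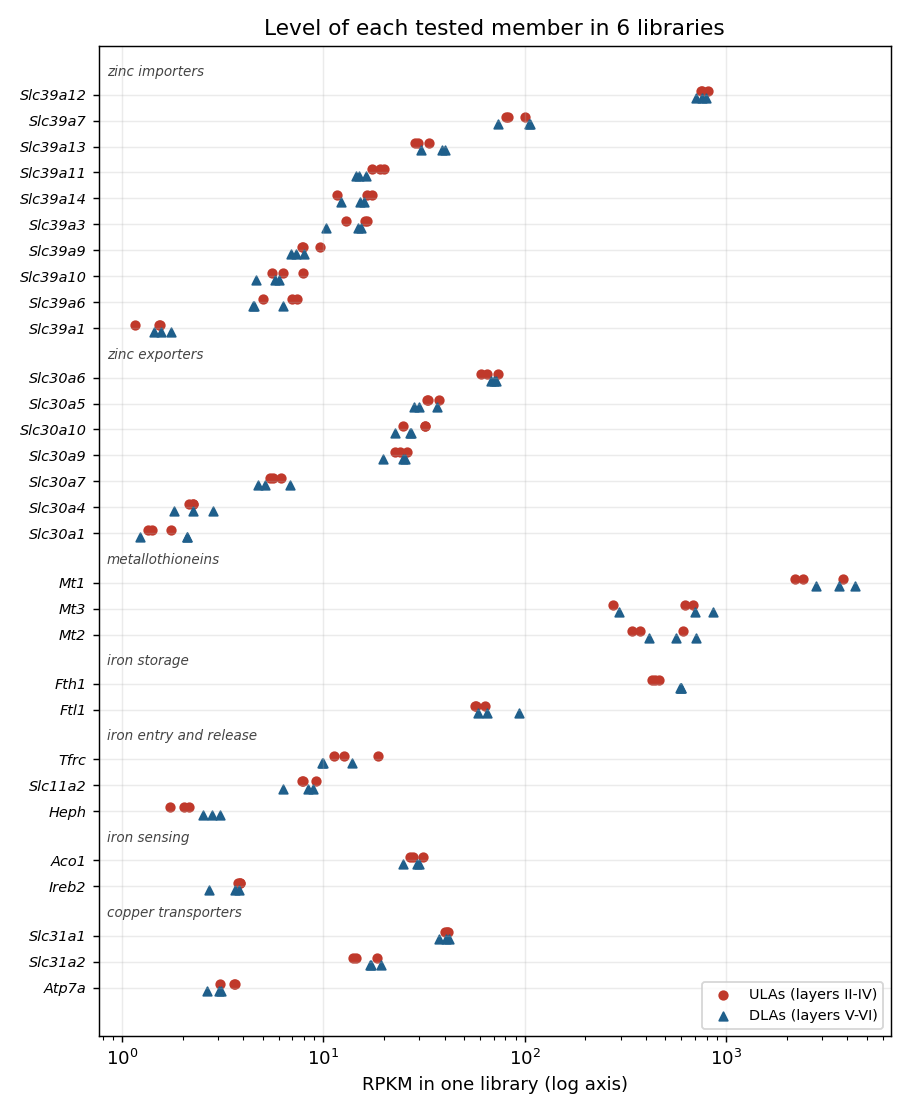
RPKM of the 30 tested genes in each of the 6 libraries, on a log axis, grouped by role and ordered by mean level; red circles are ULAs and blue triangles DLAs. Mt1 (2203 to 4348 RPKM) and Slc39a12 (712 to 814 RPKM) lead the set, and the values of both layers overlap in all genes but Fth1, Heph and Slc39a11.

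Zinc import in these cells rested largely on 1 gene by mRNA level. Slc39a12, a zinc importer of the plasma membrane known for its expression in brain, stood at 755, 758 and 814 RPKM in ULAs, in the order of brains 1, 2 and 3 that is kept throughout, and at 712, 756 and 791 RPKM in DLAs. The 6 values lay close together and the layers overlapped. The log2 fold change was 0.04 with a 95% interval from −0.16 to 0.24 (adjusted p = 0.853, limma). RPKM is scaled to length, so the family members can be set against each other, and Slc39a12 made up 80.3% ± 2.08 (SD, n = 3) of the summed RPKM of the Slc39a genes in ULAs and 79.5% ± 3.20 in DLAs. The table places it at chr2:14310025-14416604 (mm9), with 13 exons and an mRNA of 2676 bases.

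The next highest importer was Slc39a7, which releases zinc from the endoplasmic reticulum and Golgi into the cytosol. Its RPKM was 99.8, 82.4 and 80.9 in ULAs and 106, 105 and 73.3 in DLAs. ULAs were higher in brain 3 and lower in brains 1 and 2, and the layers overlapped (adjusted p = 0.716, limma). Of the 36-base stretches of its GENCODE transcript, 82.9% also occur in the annotation Gm20427, so that its level could depend on how such reads were counted.

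Slc39a11, a distant member of the ZIP family, had 19.9, 19.0 and 17.5 RPKM in ULAs and 16.2, 14.5 and 15.1 RPKM in DLAs. Every ULA value was above every DLA value. The means were 18.8 ± 1.24 and 15.3 ± 0.848 (SD, n = 3), a 1.23-fold difference, and the log2 fold change of 0.28 (SE 0.11) did not pass (adjusted p = 0.245, limma).

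Slc39a13, a zinc transporter of intracellular vesicles, went the other way in all 3 brains, at 33.5, 28.5 and 29.5 RPKM in ULAs and 38.8, 40.1 and 30.6 RPKM in DLAs. The lowest DLA value, from brain 3, fell within the range of ULAs. The estimate for Slc39a13 was −0.25 on the log2 scale, with an SE of 0.11 and an adjusted p of 0.323 (limma). Slc39a6, a ZIP protein of the plasma membrane, was listed at 7.01, 7.37 and 5.04 RPKM in ULAs and at 6.30, 4.50 and 4.45 RPKM in DLAs. ULAs were higher in each brain, most of all in brain 2, and the layers overlapped. Its difference of 0.30 on the log2 scale had an SE of 0.14 and an adjusted p of 0.341 (limma).

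In the other 5 tested importers the values of the layers overlapped. Slc39a10, the closest relative of Slc39a6, had a mean of 6.58 ± 1.23 RPKM in ULAs and 5.47 ± 0.743 RPKM in DLAs, and Slc39a9, a transporter of the Golgi, had 8.47 ± 0.962 and 7.42 ± 0.572 RPKM. Both were higher in ULAs in all 3 brains. Slc39a14, which also carries manganese and iron, had 15.2 ± 3.07 and 14.5 ± 2.04 RPKM. Slc39a3 had 15.1 ± 1.88 RPKM in ULAs and 13.5 ± 2.79 RPKM in DLAs, with ULAs higher in brains 1 and 3 and lower in brain 2. Slc39a1 was the lowest tested importer, at 1.41 ± 0.217 and 1.58 ± 0.156 RPKM. The median log2 fold change of the 10 tested importers was 0.11, and 7 values were above 0, of which that of Slc39a14 fell below 0 after correction for mRNA length. Slc39a2, Slc39a4, Slc39a5 and Slc39a8 were under the filter. Slc39a4, known as the importer of dietary zinc in the intestine, was listed at 0 in all ULA libraries, and Slc39a8 had 0.23 ± 0.0529 RPKM in ULAs and 0.293 ± 0.0586 RPKM in DLAs.

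The exporters of the Slc30a family summed to 164 ± 12.1 RPKM in ULAs and 161 ± 8.73 RPKM in DLAs, below the level of Slc39a12 alone. The highest was Slc30a6, at 66.6 ± 6.73 and 70.4 ± 1.98 RPKM. It pairs with Slc30a5, which had 34.5 ± 2.75 RPKM in ULAs and 31.6 ± 4.43 RPKM in DLAs, to load zinc into the early secretory pathway. Slc30a10, known chiefly as an exporter of manganese, had 29.6 ± 4.09 and 25.7 ± 2.52 RPKM, was higher in ULAs in all 3 brains, and had the smallest adjusted p of the family (log2 fold change 0.19, adjusted p = 0.393, limma). Slc30a9, a mitochondrial zinc transporter, had 24.3 ± 1.71 and 23.3 ± 3.06 RPKM.

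The remaining exporters were low. Slc30a7 of the Golgi had 5.71 ± 0.380 RPKM in ULAs and 5.57 ± 1.12 RPKM in DLAs, and Slc30a4, a vesicular transporter, had 2.23 ± 0.0577 and 2.30 ± 0.513 RPKM. Slc30a1, the exporter of the plasma membrane, had 1.5 ± 0.218 and 1.81 ± 0.502 RPKM. Slc30a3, which fills synaptic vesicles of neurons with zinc, was listed at 0 to 0.17 RPKM. Slc30a8, the transporter of insulin granules, and Slc30a2 did not exceed 0.03 and 0.04 RPKM. None of the 7 tested exporters passed, and their median log2 fold change was 0.04, with 4 values above 0 and 3 below, of which that of Slc30a7 changed sign after correction for mRNA length.

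**Figure D2:**
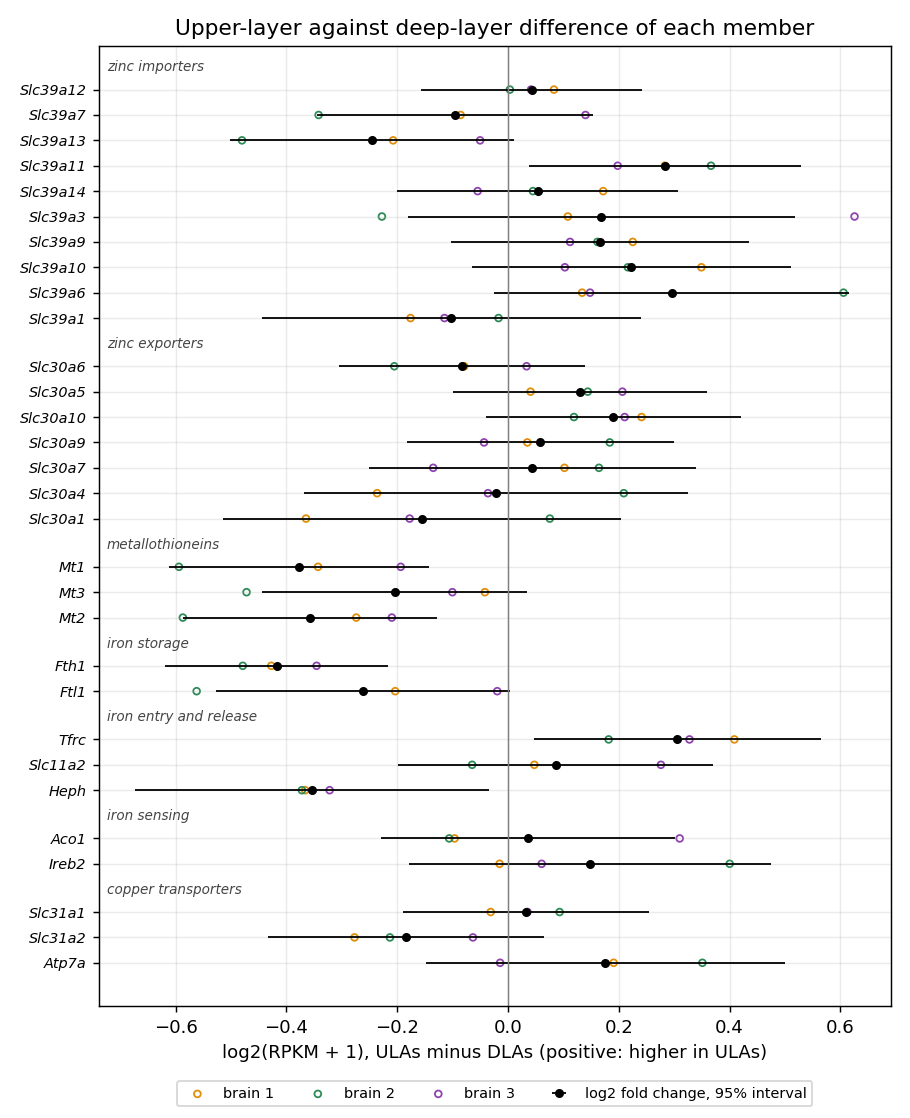
Log2(RPKM + 1) of ULAs minus DLAs for the 30 tested genes; black points are the limma estimates with 95% intervals and open circles are the differences within each of the 3 brains. Fth1, Mt1 and Mt2 lie left of 0 in every brain and Tfrc and Slc39a11 right of 0 in every brain, and no gene passed at an adjusted p of 0.05.

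The metallothioneins were among the most abundant mRNAs of the set. Their genes stand in a row on chromosome 8, and the table gives Mt4 at chr8:96661104-96662931, Mt3 at chr8:96676507-96678048, Mt2 at chr8:96696518-96697467 and Mt1 at chr8:96702989-96704227 (mm9), each with 3 exons. Mt1 and Mt2 are known to be induced by metals and by glucocorticoids, through metal response elements and glucocorticoid response elements, while Mt3 is known as the form of the brain and Mt4 as that of stratified epithelia. The 250 bases before the RefSeq start are shown for Mt1 (chr8:94178839-94179088, GRCm38.p6, plus strand), Mt2 (chr8:94172368-94172617) and Mt3 (chr8:94152357-94152606), because Mt3 varied apart from the other two between brains. Capitals mark matches to the core of the metal response element, searched as TGCACNC and TGCGCNC on both strands.
Mt1: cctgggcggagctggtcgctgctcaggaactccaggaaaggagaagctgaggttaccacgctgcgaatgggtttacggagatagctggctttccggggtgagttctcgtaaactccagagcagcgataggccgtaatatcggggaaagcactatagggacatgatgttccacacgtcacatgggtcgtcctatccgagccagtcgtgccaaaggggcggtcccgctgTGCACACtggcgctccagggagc
Mt2: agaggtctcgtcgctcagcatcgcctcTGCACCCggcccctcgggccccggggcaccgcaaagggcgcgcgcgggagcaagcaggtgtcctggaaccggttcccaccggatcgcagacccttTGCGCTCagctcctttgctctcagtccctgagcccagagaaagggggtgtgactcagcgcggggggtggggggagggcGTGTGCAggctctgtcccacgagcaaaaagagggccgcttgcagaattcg
Mt3: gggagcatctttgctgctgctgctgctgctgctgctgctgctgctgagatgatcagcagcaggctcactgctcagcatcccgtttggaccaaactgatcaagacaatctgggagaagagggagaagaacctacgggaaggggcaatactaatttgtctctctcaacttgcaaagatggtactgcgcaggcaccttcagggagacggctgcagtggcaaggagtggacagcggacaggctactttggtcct
From 250 bases before to 50 bases after the start, Mt2 had 4 matches, Mt1 had 3, and Mt3 and Mt4 had 1 each. Of 32851 RefSeq promoter windows of this length, 25.7% held at least 1 match, 1.97% at least 3 and 0.517% at least 4. A match is a run of letters and not a measured binding site, and elements outside this window were not searched. The counts depend on the start: GENCODE transcripts of Mt1 also start 122 and 152 bases downstream of the RefSeq start, those of Mt2 46 and 242 and those of Mt3 139 bases downstream. The window does not cover the bases just before the later of these starts.

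Mt1 reached 2203, 2423 and 3801 RPKM in ULAs, and 2795, 3657 and 4348 RPKM in DLAs. DLAs were higher than ULAs within every brain, but the spread between brains was wide enough for the layers to overlap. The difference within a brain was −0.34, −0.59 and −0.19 on the log2 scale. The means were 2809 ± 866 RPKM in ULAs and 3600 ± 778 RPKM in DLAs (SD, n = 3), and limma gave a log2 fold change of −0.38 with an SE of 0.11 and an adjusted p of 0.12.

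Mt2 had 343, 373 and 612 RPKM in ULAs and 415, 561 and 708 RPKM in DLAs. The order of the brains and the direction of the layers were those of Mt1. In limma the log2 fold change of Mt2 came to −0.36, with an SE of 0.10 and an adjusted p of 0.13. Without brain 3 both genes passed, with log2 fold changes of −0.47 for Mt1 (adjusted p = 0.0202) and −0.43 for Mt2 (adjusted p = 0.0208), in a fit that called 4.91% of all rows higher in DLAs. Without brain 1 the adjusted p-values were 0.729 and 0.589 (limma).

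Mt3 had 682, 622 and 275 RPKM in ULAs and 702, 864 and 294 RPKM in DLAs. Brain 3 was the lowest in both layers, and the difference between layers was small beside it. Between the layers limma gave −0.20 on the log2 scale, with an SE of 0.11 and an adjusted p of 0.375. It was −0.07 without brain 2 and −0.09 after correction for mRNA length. Mt4 was listed at 0 in all 6 libraries.

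The make-up of the family differed more between brains than between the layers of a brain. Mt1 was 6.14 to 6.74 times as abundant as Mt2 in all 6 libraries. Over Mt3, in contrast, Mt1 was 3.23, 3.89 and 13.8 times as abundant in ULAs, and 3.98, 4.23 and 14.8 times in DLAs. Mt3 held 21.1%, 18.2% and 5.86% of the summed metallothionein RPKM in ULAs and 17.9%, 17% and 5.50% in DLAs. Each layer of a brain was sorted and sequenced as a library of its own, and both libraries of brain 3 showed the shift. The labels give only a replicate number, so a difference between animals and one between preparations cannot be told apart.

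Set against the mean of the other brains within each layer, Mt3 of brain 3 differed by −1.32 on the log2 scale, while Mt1 differed by 0.58 and Mt2 by 0.66. The median absolute size of this difference over all tested rows was 0.14, and 0.143% of them (20 rows) had a larger one than Mt3. For Mt1 and Mt2 the respective shares were 3.63% and 2.47%. The same difference was 0.11 for Slc39a12 and 0.04 for Fth1. Brain 1, set against the others in this way, differed by −0.49 for Mt1, −0.54 for Mt2 and 0.60 for Mt3. The shares of rows with a larger difference there were 4.61%, 3.29% and 2.38%. Brain 2 differed by −0.09 for Mt1, −0.12 for Mt2 and 0.72 for Mt3. For Mt1 and Mt2 brain 3 was thus not the only brain to stand apart. Mt1 and Mt3 share no 36-base stretch with another gene of the GENCODE transcripts. Of the stretches of Mt2, in contrast, 52.9% also occur in the annotation Gm45774. Each such comparison rests on 1 brain, and the difference between brains was not tested.

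**Figure D3:**
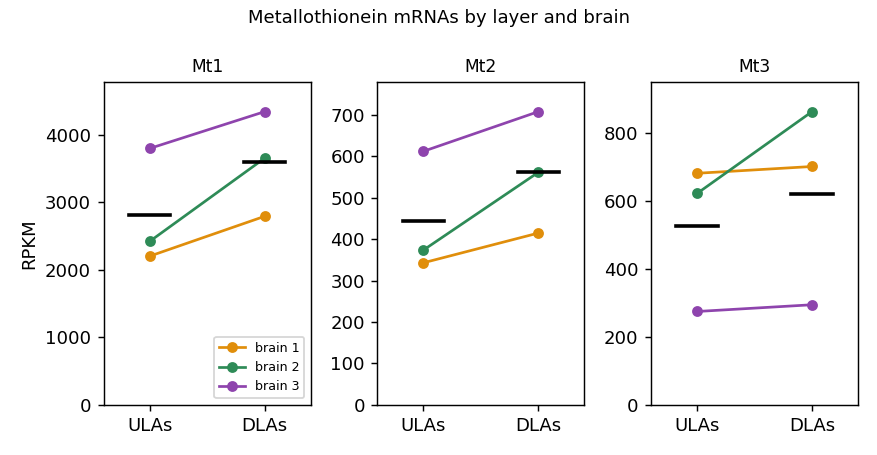
RPKM of Mt1, Mt2 and Mt3 in ULAs and DLAs; each line joins the libraries of 1 brain and black bars are the means of 3 libraries. DLAs lie above ULAs in every brain for all 3 genes, and brain 3 is the highest for Mt1 and Mt2 and the lowest for Mt3 (275 and 294 RPKM).

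The sum of 10 glucocorticoid response genes was 214, 224 and 358 RPKM in ULAs and 334, 312 and 474 RPKM in DLAs, with DLAs higher within every brain and brain 3 highest in each layer. Over the list the median log2 fold change was −0.07, and 1 of its 8 tested genes passed. This gene, Tsc22d3, the glucocorticoid-induced leucine zipper, made up most of the sum, with 127, 139 and 258 RPKM in ULAs and 242, 225 and 358 RPKM in DLAs. Its log2 fold change of −0.70 (SE 0.11) passed, at an adjusted p of 0.0114 (limma). The list did not move as one between brains. Sult1a1 and Pdk4 were highest in brain 3 in each layer, whereas Per1 (2.14, 2.56 and 1.56 RPKM in ULAs) and Zbtb16 (3.14, 3.22 and 2.18 RPKM in ULAs) were lowest there in each layer. Nr3c1, the glucocorticoid receptor, had 24.9 to 29.5 RPKM in ULAs and 27.3 to 30.6 RPKM in DLAs. The sum of 15 immediate early genes, which can rise while cells are dissociated, was 78.3, 132 and 105 RPKM in ULAs and 107, 142 and 93.3 RPKM in DLAs, highest in brain 2. The part of any of these in the metallothionein values was not tested. Mtf1, the zinc-sensing factor that binds metal response elements, had 5.31 ± 0.474 RPKM in ULAs and 5.35 ± 0.588 RPKM in DLAs (log2 fold change −0.01, adjusted p = 0.983, limma).

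Iron storage gave the value nearest to the threshold. The mRNAs of ferritin and of the transferrin receptor carry iron responsive elements, hairpins with a loop of CAGTGN that the iron regulatory proteins hold when iron is low. In the 5′ UTR such a hairpin blocks translation, and in the 3′ UTR it protects the mRNA from decay. Sequences with this loop and a paired stem were found in the GENCODE transcripts (GRCm38) and are printed with the loop in capitals: Fth1 at chr19:9982733-9982759 on the plus strand, Ftl1 at chr7:45459780-45459806 on the minus strand and Slc40a1 at chr1:45925466-45925492 on the minus strand in their 5′ UTRs, and the first of 4 in the 3′ UTR of Tfrc at chr16:32631220-32631246 on the plus strand.
Fth1: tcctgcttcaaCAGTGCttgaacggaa
Ftl1: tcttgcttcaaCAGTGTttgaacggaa
Slc40a1: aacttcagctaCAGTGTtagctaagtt
Tfrc: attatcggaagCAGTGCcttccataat
The same search found a hairpin in the 5′ UTR of 7 and in the 3′ UTR of 32 of 21509 genes (0.033% and 0.149%). Only mRNA was measured here, so that translation of ferritin was not seen.

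Fth1, the ferritin heavy chain that oxidises iron for storage, reached 445, 427 and 464 RPKM in ULAs, and 598, 595 and 590 RPKM in DLAs. The layers were clearly apart, and the spread within DLAs was smaller than that within ULAs. The means were 445 ± 18.4 and 594 ± 4.37 RPKM (SD, n = 3), a 1.34-fold difference, with 10239 to 16415 reads behind each value. The log2 fold change was −0.42 (SE 0.09, 95% interval −0.62 to −0.22), and the adjusted p was 0.0556 (limma). It passed with the filter set at 5 RPKM (adjusted p = 0.0357), where 1.62% of all rows were called higher in DLAs, and without brain 3 (adjusted p = 0.0131), where 4.91% were called, and its adjusted p-values over all alternatives ran from 0.0131 to 0.543.

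Ftl1, the ferritin light chain, had 56.5, 63.4 and 57.6 RPKM in ULAs and 65.2, 94.0 and 58.4 RPKM in DLAs. DLAs were higher in every brain, by little in brain 3 and by most in brain 2. In limma Ftl1 differed by −0.26 on the log2 scale, with an SE of 0.12 and an adjusted p of 0.31. The estimate was −0.11 without brain 2. Of the 36-base stretches of Ftl1, 93.8% also occur in 28 other annotated genes, largely processed copies, against 10.5% in 3 others for Fth1, so that the level of Ftl1 depends on how such reads were counted. The ratio of Fth1 to Ftl1, between 6.33 and 10.1, is uncertain for the same reason.

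Tfrc, the transferrin receptor, had 18.7, 11.3 and 12.7 RPKM in ULAs and 13.9, 9.87 and 9.90 RPKM in DLAs. ULAs were higher in every brain, in the direction opposite to Fth1, and brain 1 was the highest in both layers. The means were 14.3 ± 3.95 and 11.2 ± 2.30 RPKM, and the difference of 0.31 on the log2 scale had an SE of 0.12 and an adjusted p of 0.233 (limma). Heph, a copper-dependent oxidase that helps iron to leave the cell, was low, at 2.15, 1.72 and 2.04 RPKM in ULAs and 3.06, 2.52 and 2.80 RPKM in DLAs. Every DLA value exceeded every ULA value, on 261 to 491 reads per library, and the difference was 1.42-fold (log2 fold change −0.35, SE 0.14, adjusted p = 0.261, limma).

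Slc11a2, the divalent metal transporter that moves iron out of endosomes, had 8.32 ± 0.732 RPKM in ULAs and 7.83 ± 1.35 RPKM in DLAs. Slc40a1, ferroportin, was under the filter at 0.677 ± 0.0814 and 0.99 ± 0.456 RPKM. Cp, the oxidase ceruloplasmin, was just under it at 1.05 ± 0.136 and 0.86 ± 0.165 RPKM, with ULAs higher in all 3 brains. Slc11a1, known from the phagosomes of macrophages, did not exceed 0.18 RPKM. The sensors that bind the hairpins shown above were both expressed: Aco1 (iron regulatory protein 1) had 28.6 ± 2.20 and 27.9 ± 2.65 RPKM, and Ireb2 (iron regulatory protein 2) had 3.82 ± 0.0569 and 3.38 ± 0.604 RPKM. Neither passed (adjusted p = 0.912 and 0.657, limma).

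**Figure D4:**
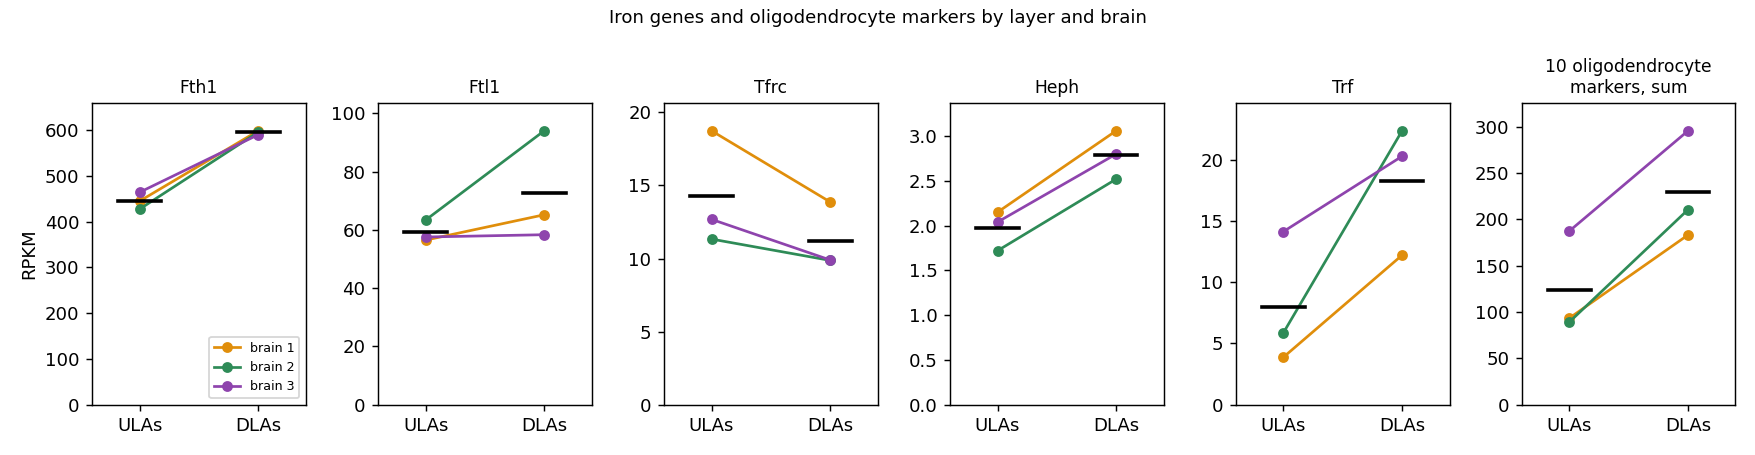
RPKM of Fth1, Ftl1, Tfrc, Heph and Trf and the summed RPKM of 10 oligodendrocyte markers in ULAs and DLAs; lines join the libraries of 1 brain and black bars are the means of 3 libraries. Fth1 lies between 427 and 464 RPKM in ULAs and between 590 and 598 RPKM in DLAs. The marker sum lies between 89.3 and 187 RPKM in ULAs and between 183 and 296 RPKM in DLAs.

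Oligodendrocytes are rich in iron, ferritin and transferrin, and their markers were higher in the DLA libraries. Their sum was 93.5, 89.3 and 187 RPKM in ULAs, and 183, 211 and 296 RPKM in DLAs. Within every brain both the sum and Fth1 were higher in DLAs. Across brains, the sum was 187 RPKM in the ULAs of brain 3 and 183 RPKM in the DLAs of brain 1. Fth1 was 464 RPKM in the former and 598 RPKM in the latter. Over the DLA libraries the sum ran from 183 to 296 RPKM and Fth1 from 590 to 598 RPKM. The part of oligodendrocyte RNA in the difference of Fth1 was not tested.

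Copper genes were represented by Slc31a1, the importer of the plasma membrane, at 41.0 ± 0.767 RPKM in ULAs and 40.1 ± 2.25 RPKM in DLAs. Its log2 fold change was 0.03 with a 95% interval from −0.19 to 0.25. Slc31a2, a related protein of endosomes and lysosomes, had 15.7 ± 2.38 and 17.9 ± 1.24 RPKM and was higher in DLAs in every brain (adjusted p = 0.443, limma). The copper pump Atp7a had 3.43 ± 0.315 and 2.92 ± 0.257 RPKM, and its relative Atp7b, known from liver, was under the filter at 0.273 ± 0.156 and 0.267 ± 0.0808 RPKM.

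The members also fell into length classes. The 5 tested members under 1000 bases were Mt1, Mt2, Mt3, Fth1 and Ftl1, and all 5 were lower in ULAs, with a median log2 fold change of −0.36. The same held to a lesser degree for the whole table: the 2362 tested rows under 1000 bases had a median of −0.11 and 65.0% of them were negative, while the rows of 4000 bases and more had a median of 0.09. Of the short rows 8.59% were at least as low as Fth1, 11.6% as low as Mt1 and 13.3% as low as Mt2. After a loess correction for length in each brain the log2 fold change was −0.29 for Fth1 (adjusted p = 0.172), −0.26 for Mt1 (adjusted p = 0.313) and −0.24 for Mt2 (adjusted p = 0.333), in limma. Heph, with an mRNA of 5933 bases, was lower in ULAs against the trend of its length, at −0.45 after correction (adjusted p = 0.204).

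**Figure D5:**
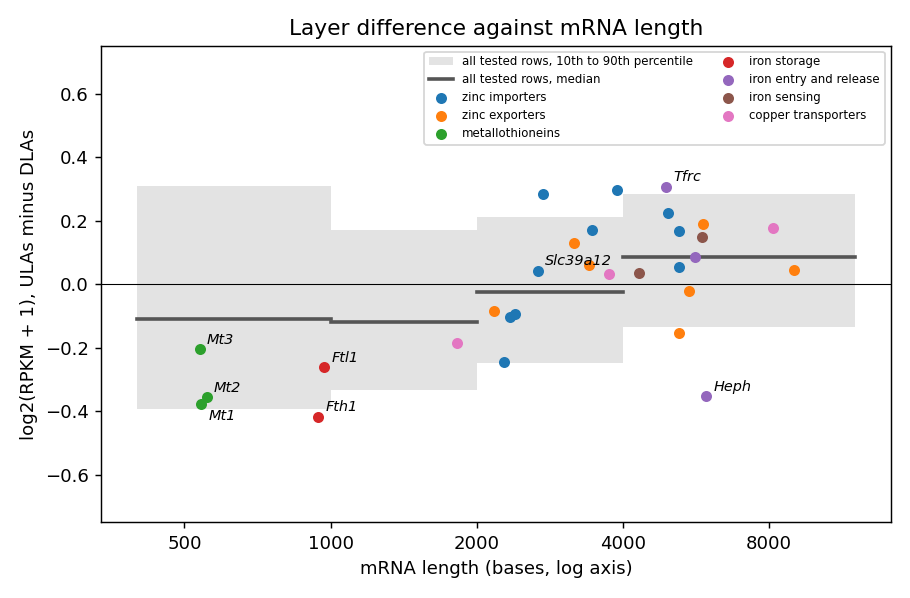
Log2 fold change (ULAs minus DLAs) of the 30 tested genes against mRNA length on a log axis, coloured by role; grey bars span the 10th to 90th percentile and dark lines the median of all tested rows under 1000, from 1000 to 2000, from 2000 to 4000 and from 4000 bases. The 5 genes under 1000 bases all lie below the median of their class (−0.11), and Heph lies below the 10th percentile of the longest class.

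Other genes of metal handling were taken from a list of iron and haem genes and of copper and zinc genes. Of these companions 55 were in the table and 41 were tested, and 1 passed in each direction, against 0.714% and 0.914% of all tested rows. Their median log2 fold change was −0.04. Pam, a copper-dependent enzyme that amidates peptide hormones, had 14.2, 12.5 and 17.2 RPKM in ULAs and 7.85, 4.88 and 11.1 RPKM in DLAs. All ULA values were above all DLA values, and Pam passed with a log2 fold change of 0.85, an SE of 0.14 and an adjusted p of 0.0153 (limma).

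Trf, transferrin, which in brain is made largely by oligodendrocytes, had 3.88, 5.88 and 14.1 RPKM in ULAs and 12.2, 22.4 and 20.3 RPKM in DLAs. DLAs were higher in every brain, and the ULAs of brain 3 exceeded the DLAs of brain 1. Trf passed with a log2 fold change of −1.23, an SE of 0.21 and an adjusted p of 0.0162 (limma). In both Trf and the oligodendrocyte marker sum the ULAs of brains 1 and 2 were the lowest. In both, the ULAs of brain 3 stood above the DLAs of brain 1. The highest library differed: it was the DLAs of brain 2 for Trf and the DLAs of brain 3 for the sum (296 RPKM, against 211 RPKM in brain 2). The part of oligodendrocytes in the value of Trf was not tested. Neither Pam nor Trf passed without the brain as a term (adjusted p = 0.321 and 0.361, limma).

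The 5 most abundant companions did not pass. Prnp, the copper-binding prion protein, had 2627 ± 129 RPKM in ULAs and 2528 ± 236 RPKM in DLAs, Slc48a1, a haem transporter, had 242 ± 13.7 and 225 ± 16.1 RPKM, and Slc22a17, a receptor for lipocalin, had 193 ± 15.5 and 188 ± 21.8 RPKM. Sod3, the extracellular superoxide dismutase, had 196 ± 14.2 and 185 ± 21.9 RPKM. Cox17, a copper chaperone of the mitochondrion with an mRNA of 436 bases, had 96.2 ± 9.31 RPKM in ULAs and 119 ± 9.52 RPKM in DLAs (log2 fold change −0.31, adjusted p = 0.152, limma).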

How the data were processed

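RNA-seq of 6 libraries (3 of ULAs, 3 of DLAs) was used. The authors deposited RPKM values, truncated to 2 decimals, with exon positions on mm9 and the mRNA length of each row. The submitters' processing notes name bcl2fastq 1.8.4 and CASAVA 1.8.2; the counting program and its treatment of reads with several matches are not given in the sources used here. Depth was recovered from the RPKM steps of short rows (500 bases at most), whose values were turned back into reads per 1 M in steps of 0.01. A value counted as whole where a whole read number fell within its step, which held for 100% of values at the depth chosen and for at most 83.5% at the next best depth.

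Rows whose RPKM averaged 1 or more were fitted on log2(RPKM + 1) with limma 3.58.1 in R 4.3.3 (eBayes with an intensity trend, brain and layer as terms, 2-sided, Benjamini-Hochberg over 13999 rows). Same-numbered libraries varied together around the mean of their layer (r over rows 0.42, 0.33 and 0.34, against −0.20 to −0.16 for unlike numbers), and the study compared brains in pairs. P-values rest on how the difference between layers varied over these 3 brains, with variances moderated across rows by eBayes. A self-test of the fit was run.

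Every member is named; values per library are given for the 10 with the smallest p and the 6 with the highest mean. Of the companions, those that passed and the 5 most abundant are named. Gfap, Tsc22d3, Sult1a1, Pdk4, Per1, Zbtb16, Nr3c1, Dusp1, Jund and Mtf1 were named after their values were seen. The members and lists were chosen with earlier results of these data known. Ftl2, Flvcr1, Flvcr2, Hba-a1 and Hba-a2 were not found by these symbols. Promoters are from RefSeq (GRCm38.p6) and hairpins from GENCODE (GRCm38); no coordinates were carried between builds. The alternatives were no brain term, no filter, a filter at 5 RPKM, a pseudocount of 0.1, no trend, centring on the median, quantile normalization, a length correction and each brain left out in turn.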

Additional observations from a re-analysis of the deposited data

How the results depend on the processing

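Of 324 values of the 30 members under 11 alternatives, 307 kept their sign and their side of the threshold, 4 passed newly (Fth1, Mt1 and Mt2, as given above) and 13 changed sign, in 9 members that never passed. After length correction the log2 fold change was −0.0254 for Aco1, −0.00286 for Slc11a2, −0.0621 for Slc30a7, −0.00252 for Slc31a1 and −0.0291 for Slc39a14. With 1 brain left out it ran from −0.101 to 0.107 for Aco1, −0.00849 to 0.162 for Slc11a2, −0.136 to 0.0866 for Slc30a4, −0.0164 to 0.133 for Slc30a7, −0.00404 to 0.109 for Slc30a9, −0.0048 to 0.109 for Slc39a14, −0.0597 to 0.367 for Slc39a3 and −0.214 to 0.0273 for Slc39a7. The number of members that passed was 0 with limma (6 at an unadjusted p under 0.05), 1 of 24 with a mean RPKM of at least 5 (1.08% and 1.62% of all rows passed there in ULAs and DLAs), and 0 to 3 with 1 brain left out, the 3 without brain 3 (3.04% and 4.91% of all rows). Over all rows, 100 higher in ULAs and 128 higher in DLAs became 23 and 18 without the replicate block, 65 and 79 without the trend, 0 and 0 without the filter (1124 and 1675 at an unadjusted p under 0.05), and 78 in DLAs after length correction. With 1 brain left out they were 104 to 426 and 126 to 687, the highest without brain 3. The 2 companions that passed became 0 without the replicate block, 0 without the filter, 1 without the trend (Pam, adjusted p = 0.0392; Trf did not pass, adjusted p = 0.0513) and 2 to 5 with 1 brain left out. The causes were not tested. Members under the filter rest on few reads (at most 161 in a library).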
